A study of Mus musculus with 6 samples.

Results

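Nox4, Cyba, Cybb, Ncf1 and Ncf4, which encode the catalytic subunit of one NADPH oxidase and subunits of the phagocyte NADPH oxidase, were followed in regenerating livers of Aqp5-/- and Aqp5+/+ mice. The genes were taken by name from the table of counts, 5 of its 16858 genes, and all 5 passed the filter on low counts. They were chosen as sources of H2O2, a substance that aquaporin 5 carries across membranes, and were selected on their counts in these same libraries, that is, with this genotype comparison in view, so their differences between the genotypes are given as a description without p-values, and nothing is read from the counts of calls. In Aqp5-/- livers Nox4 was at 14.7 ± 1.98 CPM, against 93.4 ± 18.3 CPM in Aqp5+/+ livers (mean ± SD, n = 3 libraries each), while Cyba, Cybb and Ncf1 were higher in every Aqp5-/- library than in any Aqp5+/+ library. Ncf4 overlapped between the genotypes. CPM is the read count of a gene after TMM scaling for library size.

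The livers were sampled at 72 h after 70% PHx, the removal of 70% of the liver that sets off its regeneration, and RNA depleted of ribosomal RNA was sequenced. The groups were Aqp5-/- mice (3 libraries), which carry a CRISPR/Cas9 knockout of the water and H2O2 channel aquaporin 5, and wild-type mice, written Aqp5+/+ (3 libraries), given as C57 in the series' design text and as C57BL/6 in the methods. All animals had undergone PHx, and for PHx the methods of the study state male mice 3 months of age. Whether each library stands for its own animal is not stated in the sources used here. The p-values therefore cover only the variation among 3 libraries of a genotype, and this may be technical.

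NADPH oxidases are membrane enzymes that pass electrons from NADPH in the cytosol across the membrane to oxygen. Nox4 is active once made, releases mainly H2O2 and is therefore governed largely by its amount, and in the liver it is known from hepatocytes, stellate cells and endothelial cells. The phagocyte enzyme of neutrophils and macrophages, Kupffer cells included, is built from gp91phox (Cybb) and p22phox (Cyba) in the membrane. It makes superoxide only after cytosolic subunits, p47phox (Ncf1) and p40phox (Ncf4) among them, and a Rac GTPase join it. Nox4 also needs p22phox as its membrane partner but none of the cytosolic subunits.

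Depth and library traits touch every value that follows. The deepest library was Aqp5-/- replicate 3 with 15550006 counts and the shallowest Aqp5+/+ replicate 2 with 7130831 counts. Expression of Aqp5 was not analysed here. The summed level of 4 Y-linked genes was 0.893, 0.869 and 1.19 CPM in Aqp5-/- libraries, against 304, 471 and 287 CPM in Aqp5+/+ libraries. Such low levels in Aqp5-/- libraries are at odds with the male mice stated in the methods. Genotype therefore cannot be told apart from Y-linked expression, and possibly from the sex of the animals, for any gene. Aqp5-/- replicate 3 stood apart in collagen and bile duct genes. Its stellate cell markers summed to 3359 CPM, against 746 and 863 CPM in the other Aqp5-/- libraries and 979, 820 and 775 CPM in Aqp5+/+ libraries. Aqp5+/+ replicate 2 stood apart in hepatocyte markers, which summed to 79068 CPM there, against 122489 and 141338 CPM in the other Aqp5+/+ libraries. In Aqp5-/- libraries they summed to 127274, 122795 and 131488 CPM. Of these markers, which albumin led in every library, 0 of 13 tested were called, that is, had an adjusted p under 0.05 by edgeR (0 also by DESeq2 and limma, and 0 at an unadjusted p under 0.05). Over the 12353 genes tested, 41 (0.332%) were called, of which 19 were higher and 22 lower.

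The DNA in front of the genes is shown because Cyba, Cybb and Ncf1 moved together across the libraries while Nox4 moved the other way. RefSeq promoter sequences on GRCm38.p6 were matched by symbol for 4 of the 5 genes and are printed from 250 bases before the RefSeq start site to 30 bases after it, read on the strand of the gene. For Nox4 and Cybb that start site lies inside the gene span that GENCODE gives. Capitals mark matches to short motifs. The GC box was searched as GGGCGG, the box bound by the factor NF-Y as CCAAT, and the core of the site of PU.1, the master transcription factor of myeloid cells, as GAGGAA. Each was searched on both strands, so that a match on the other strand appears as its reverse complement, and no motif is contained in another.
Nox4, chr7:87246399-87246678, plus strand: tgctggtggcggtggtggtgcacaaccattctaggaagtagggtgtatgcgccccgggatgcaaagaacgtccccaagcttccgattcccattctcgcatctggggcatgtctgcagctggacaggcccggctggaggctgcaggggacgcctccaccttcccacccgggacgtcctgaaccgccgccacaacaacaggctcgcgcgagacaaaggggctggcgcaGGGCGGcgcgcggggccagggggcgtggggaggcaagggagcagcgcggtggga
Cyba, chr8:122432911-122433190, minus strand: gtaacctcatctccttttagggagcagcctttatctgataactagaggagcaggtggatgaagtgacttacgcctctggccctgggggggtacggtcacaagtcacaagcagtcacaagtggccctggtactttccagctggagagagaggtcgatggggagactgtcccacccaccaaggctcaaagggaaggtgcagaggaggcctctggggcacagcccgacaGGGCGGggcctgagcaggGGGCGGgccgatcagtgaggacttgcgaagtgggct
Cybb, chrX:9469295-9469574, minus strand: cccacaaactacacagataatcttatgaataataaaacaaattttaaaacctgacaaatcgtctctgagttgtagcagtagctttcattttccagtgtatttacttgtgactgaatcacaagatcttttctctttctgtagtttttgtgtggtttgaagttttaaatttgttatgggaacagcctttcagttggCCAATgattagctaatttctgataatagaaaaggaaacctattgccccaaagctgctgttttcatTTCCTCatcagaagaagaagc
Ncf1, chr5:134229596-134229875, minus strand: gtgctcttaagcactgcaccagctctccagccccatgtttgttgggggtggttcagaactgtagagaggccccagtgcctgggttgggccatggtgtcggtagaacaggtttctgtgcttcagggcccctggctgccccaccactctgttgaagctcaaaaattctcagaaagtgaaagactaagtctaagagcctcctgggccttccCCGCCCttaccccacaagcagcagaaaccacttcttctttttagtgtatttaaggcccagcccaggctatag

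Of the 4 printed promoters, Cybb alone held the PU.1 core and a CCAAT box, and it alone held no GC box. Its PU.1 core lay on the opposite strand with its first base 10 bases after the start site, and its CCAAT box began 56 bases before the start site. The GC box began 24 bases before the start site in both Nox4 and Cyba, with another at 6 bases before it in Cyba. In Ncf1 it lay on the opposite strand, 42 bases before the start site. Among 32851 promoter windows of the same length, GAGGAA occurred in 26.0%, CCAAT in 36.1% and GGGCGG in 34.7%. The core promoter motif TATAAA, which occurred in 13.1% of these windows, was in none of the 4. The base composition differed widely, with 67.9% G and C in Nox4, 60% in Cyba, 53.9% in Ncf1 and 34.3% in Cybb, around a median of 52.5% over all windows. These matches are a description of the letters and do not show binding.

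Nox4 (ENSMUSG00000030562) lies on chromosome 7 of GRCm38 from 87246096 to 87398710 on the plus strand. It had 207, 148 and 243 counts in Aqp5-/- libraries, against 946, 760 and 1066 counts in Aqp5+/+ libraries, replicates 1 to 3. Scaled for depth, these were 16.8, 12.9 and 14.5 CPM in Aqp5-/- livers, against 79.3, 114 and 86.8 CPM in Aqp5+/+ livers. The Aqp5-/- libraries lay within a narrow band far below the Aqp5+/+ libraries, and the highest Aqp5-/- library did not reach the lowest Aqp5+/+ library. The log2 fold change, Aqp5-/- over Aqp5+/+, was -2.66 (SE 0.24), and the mean of the Aqp5+/+ libraries was 6.35 times that of the Aqp5-/- libraries. From the lowest fold change upward, Nox4 ranked 61 among the 12353 genes tested. The highest Nox4 level was in Aqp5+/+ replicate 2, the shallowest library and the one with the lowest hepatocyte marker sum. Without that library the log2 fold change was -2.50.

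**Figure D1:**
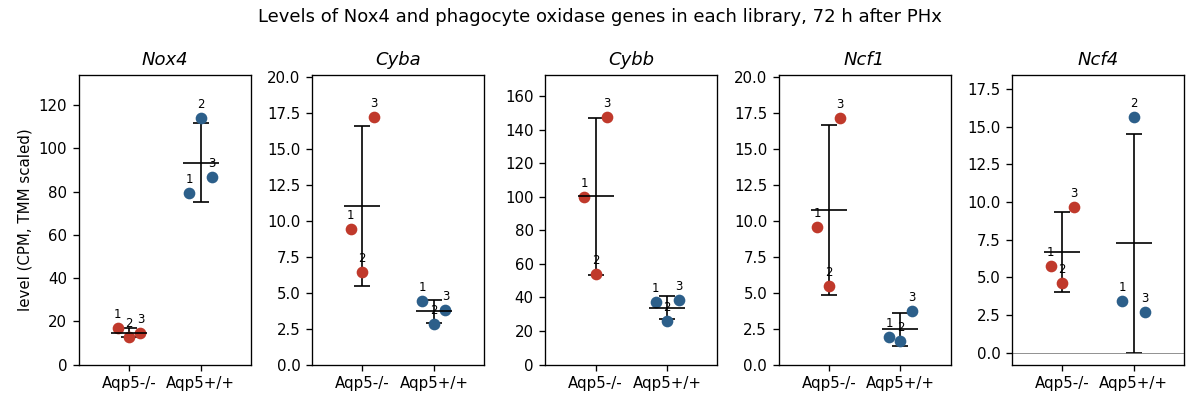
Levels of Nox4, Cyba, Cybb, Ncf1 and Ncf4 in CPM (TMM scaled, linear axes that differ between panels), with 1 point per library numbered by replicate, Aqp5-/- in red and Aqp5+/+ in blue, and black bars for mean ± SD (n = 3 each). Nox4 lies between 12.9 and 16.8 CPM in Aqp5-/- and between 79.3 and 114 CPM in Aqp5+/+ livers, Cyba, Cybb and Ncf1 are higher in all 3 Aqp5-/- libraries with replicate 3 on top, and Ncf4 overlaps.

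Cybb (ENSMUSG00000015340, chromosome X from 9435252 to 9487771, minus strand), the catalytic subunit gp91phox of the phagocyte enzyme, was the most abundant of the 4 phagocyte genes per length. It had 1227, 620 and 2477 counts in Aqp5-/- libraries, against 445, 173 and 475 counts in Aqp5+/+ libraries. In CPM these were 99.6, 53.9 and 147 in Aqp5-/- livers, against 37.3, 26.0 and 38.7 in Aqp5+/+ livers. The groups did not overlap, and the spread among the Aqp5-/- libraries was much wider than among the Aqp5+/+ libraries. The mean was 100.3 ± 46.8 CPM in Aqp5-/- livers and 34.0 ± 6.96 CPM in Aqp5+/+ livers (mean ± SD, n = 3), 2.95-fold higher, with a log2 fold change of 1.56 (SE 0.37). Without Aqp5-/- replicate 3, the highest library, the log2 fold change of Cybb was 1.17.

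Cyba (ENSMUSG00000006519, chromosome 8 from 122424776 to 122432930, minus strand), the membrane partner p22phox of both gp91phox and Nox4, had 116, 74 and 289 counts in Aqp5-/- libraries, against 53, 19 and 47 in Aqp5+/+ libraries. Scaled, they were 9.41, 6.43 and 17.2 CPM in Aqp5-/- livers, against 4.44, 2.85 and 3.83 CPM in Aqp5+/+ livers. All Aqp5-/- libraries lay above all Aqp5+/+ libraries, by the smallest margin in Aqp5-/- replicate 2. The means of 11.0 ± 5.56 CPM in Aqp5-/- livers and 3.71 ± 0.801 CPM in Aqp5+/+ livers (mean ± SD, n = 3) differed 2.97-fold, with a log2 fold change of 1.56 (SE 0.43) that was 1.08 without Aqp5-/- replicate 3. Cyba overlaps the gene Gm20388 on the opposite strand, and since the strand setting of the counting is not given in the sources used here, reads of the pair may not have been told apart.

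Ncf1 (ENSMUSG00000015950, chromosome 5 from 134220053 to 134229625, minus strand), the organizer subunit p47phox whose phosphorylation starts assembly, had the largest positive log2 fold change of the 5 genes. It had 118, 63 and 288 counts in Aqp5-/- libraries, against 23, 11 and 46 counts in Aqp5+/+ libraries. These corresponded to 9.57, 5.48 and 17.1 CPM in Aqp5-/- livers, against 1.93, 1.65 and 3.74 CPM in Aqp5+/+ livers. The order of the Aqp5-/- libraries was that of Cyba and Cybb, and in Aqp5+/+ livers replicate 3 was the highest. The mean was 10.7 ± 5.92 CPM in Aqp5-/- livers and 2.44 ± 1.14 CPM in Aqp5+/+ livers (mean ± SD, n = 3), 4.40-fold higher, with a log2 fold change of 2.12 (SE 0.53). It was 1.60 without Aqp5-/- replicate 3 and 2.57 without Aqp5+/+ replicate 3. The gene overlaps Gtf2ird2, a member of the TFII-I family of transcription factors on the opposite strand, which had 7.87, 12.0 and 8.51 CPM in Aqp5-/- libraries, against 7.80, 12.5 and 6.35 CPM in Aqp5+/+ libraries.

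Ncf4 (ENSMUSG00000071715, chromosome 15 from 78244801 to 78262580, plus strand) encodes p40phox, a cytosolic subunit that binds a lipid of the phagosome membrane. It had 71, 53 and 163 counts in Aqp5-/- libraries, against 41, 104 and 33 counts in Aqp5+/+ libraries. The levels were 5.76, 4.61 and 9.70 CPM in Aqp5-/- livers, against 3.44, 15.6 and 2.69 CPM in Aqp5+/+ livers. The highest level of all was in Aqp5+/+ replicate 2, and the other Aqp5+/+ libraries lay below every Aqp5-/- library. The log2 fold change was -0.08 (SE 0.67), with means of 6.69 ± 2.67 CPM in Aqp5-/- livers and 7.25 ± 7.26 CPM in Aqp5+/+ livers (mean ± SD, n = 3), and it was 1.13 (SE 0.47) without Aqp5+/+ replicate 2. The summed level of T and NK cell markers, also highest in that library, was 14.2, 17.6 and 3.81 CPM in Aqp5-/- libraries, against 12.7, 46.7 and 11.8 CPM in Aqp5+/+ libraries, with 10 of 10 detected and 0 of 8 tested genes called by edgeR, DESeq2 or limma (0 at an unadjusted p under 0.05). Cd8a, a T cell coreceptor, had 20.4 CPM of that library's sum. Of the NK cell genes, Klrb1c was highest in that library too, at 1.95 CPM, while Ncr1 was highest in Aqp5-/- replicate 1 and Nkg7 in Aqp5-/- replicate 2. Gzma was nearly equal in Aqp5-/- replicate 1 and Aqp5+/+ replicate 2, at 2.43 and 2.40 CPM. Markers of B and dendritic cells, 11 of 11 detected, summed to 38.3, 31.3 and 16.1 CPM in Aqp5-/- libraries, against 43.4, 82.1 and 31.9 CPM in Aqp5+/+ libraries. Of the 8 tested, 0 were called by the same tools, and 1 was lower at an unadjusted p under 0.05 (8.78% of all tested genes had such a p). Of these, the dendritic cell genes Clec9a and Itgax had 42.6 and 12.2 CPM in Aqp5+/+ replicate 2, whereas the B cell genes Cd79b and Ms4a1 were highest in Aqp5+/+ replicate 1 and Cd79a in Aqp5+/+ replicate 3. The part of these cells in the Ncf4 values was not tested.

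Per kilobase of exon, Cybb averaged 17.3 ± 8.05 CPM and Cyba 10.6 ± 5.35 CPM in Aqp5-/- livers (SD, n = 3 each). In the same livers Ncf4 averaged 3.31 ± 1.32, Ncf1 2.93 ± 1.62 and Nox4 1.74 ± 0.233 CPM per kilobase. In Aqp5+/+ livers Nox4 stood first in this order with 11.0 ± 2.17 CPM per kilobase, followed by Cybb with 5.85 ± 1.20, Ncf4 with 3.59 ± 3.59, Cyba with 3.57 ± 0.771 and Ncf1 with 0.666 ± 0.310. Nox4 was thus the lowest of the 5 in the mean of Aqp5-/- livers and the highest in the mean of Aqp5+/+ livers. In Aqp5-/- livers the SD ranges of neighbours in this order overlapped except between Cyba and Ncf4, and in Aqp5+/+ livers those of Cybb, Ncf4 and Cyba overlapped.

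The balance between Nox4 and the phagocyte subunits was read within each library as a ratio of counts, which is free of library scaling. Nox4 counts were 0.169, 0.239 and 0.0981 of Cybb counts in Aqp5-/- libraries, against 2.13, 4.39 and 2.24 in Aqp5+/+ libraries. The mean ratio was 17.3 times as high in Aqp5+/+ livers. Relative to Cyba, its own membrane partner, Nox4 had 1.78, 2.00 and 0.841 counts per Cyba count in Aqp5-/- libraries, against 17.8, 40.0 and 22.7 in Aqp5+/+ libraries. The ratio of the paired membrane subunits moved far less. Cybb over Cyba was 10.6, 8.38 and 8.57 in Aqp5-/- libraries, against 8.40, 9.11 and 10.1 in Aqp5+/+ libraries, with means of 9.18 ± 1.22 and 9.20 ± 0.859 (SD, n = 3 each) in that order of genotypes. Cybb over Ncf1 was 10.4, 9.84 and 8.60 in Aqp5-/- libraries, against 19.3, 15.7 and 10.3 in Aqp5+/+ libraries, and here the groups overlapped.

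Across the 6 libraries the Pearson correlation of log2 CPM was 0.99 between Cyba and Cybb, 0.97 between Cybb and Ncf1 and 0.95 between Cyba and Ncf1. Nox4 had correlations of -0.85 with Cyba, -0.84 with Cybb and -0.86 with Ncf1. Ncf4 stood outside this pattern, with values between -0.05 and 0.13. The 6 points share the genotype difference and each library's composition, so these values describe the libraries and carry no test.

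Of the 5 genes, 4 did not overlap between the genotypes (all but Ncf4), beside 14.7% of all tested genes. EdgeR called 1 of them, Nox4, where it called 0.332% of all genes. Nox4 was not called without Aqp5-/- replicate 2, when 4 genes in all were called. DESeq2 called 3, Nox4, Cybb and Ncf1, where it called 1.95% of all genes, and limma called Nox4, where it called 0.364% of all genes. Since the genes were proposed with this comparison known, these counts are not evidence about them. All tested genes together had a median of 0.01 on the log2 fold change scale.

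**Figure D2:**
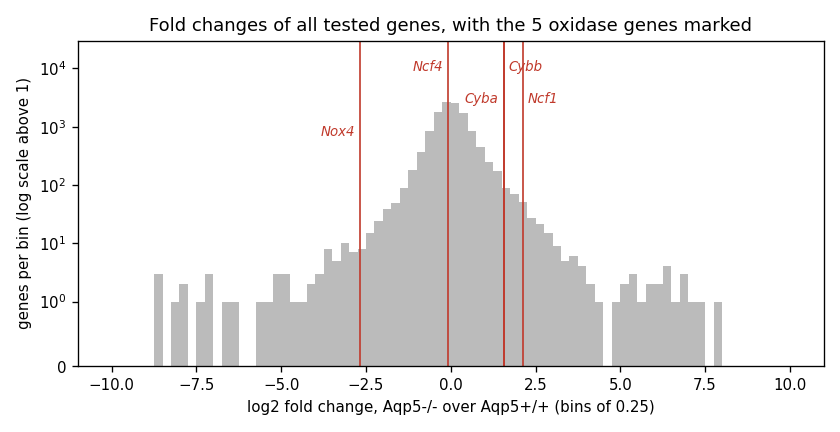
Histogram of log2 fold changes (Aqp5-/- over Aqp5+/+, bins of 0.25) of the 12353 tested genes, with the number of genes per bin on an axis that is logarithmic above 1 and red lines at the 5 oxidase genes. Most genes lie near 0, Nox4 is at -2.66, Ncf4 at -0.08, Cyba and Cybb together at 1.56 and Ncf1 at 2.12.

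The other genes of the enzyme family and its regulators were taken from a list of 17, of which 15 were in the table and 10 could be tested. By edgeR 0 of the 10 were called and by limma 0, while 3 had an unadjusted p under 0.05 (8.78% of all tested genes had), all higher in Aqp5-/- livers. DESeq2 called 2 of these 3, Rac2 and Sh3pxd2b, where it called 1.95% of all genes. The median log2 fold change of the 10 genes was 0.14. Nox3 and Duox1 were not analysed here.

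Among the cytosolic partners, Rac2, the Rac GTPase of blood cells, had 17.9, 17.8 and 31.0 CPM in Aqp5-/- livers, against 9.89, 6.91 and 8.14 CPM in Aqp5+/+ livers, without overlap. The log2 fold change of Rac2 was 1.42 (SE 0.32), with an adjusted p = 0.22 from edgeR and 0.012 from DESeq2. Rac1, the Rac GTPase found in most cells, averaged 99.3 ± 31.4 CPM over the 3 Aqp5-/- libraries and 72.6 ± 21.7 CPM over the 3 Aqp5+/+ libraries (SD), a log2 fold change of 0.45 (adjusted p = 0.69, edgeR). Rap1a, a small GTPase that copurifies with the membrane subunits, had a log2 fold change of -0.05.

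Of the accessory genes, Cybc1, which is needed to make stable gp91phox and p22phox protein and stands in the table under an older symbol, did not follow Cybb. It had 12.7, 15.3 and 14.1 CPM in Aqp5-/- livers, against 18.7, 20.9 and 11.1 CPM in Aqp5+/+ livers, a log2 fold change of -0.26 (SE 0.30). Hvcn1, the proton channel that balances the charge moved by the phagocyte enzyme, had a log2 fold change of -0.59 (SE 0.49) and Poldip2, reported to bind p22phox and raise Nox4 activity, one of 0.21 (SE 0.43). The scaffold relatives of p47phox in podosomes went in opposite directions. Sh3pxd2b (Tks4) had 83, 105 and 596 counts in Aqp5-/- libraries, against 49, 24 and 33 in Aqp5+/+ libraries, with a log2 fold change of 2.31 (SE 0.63), an adjusted p = 0.32 from edgeR and 0.016 from DESeq2. Sh3pxd2a (Tks5) had a log2 fold change of -0.46 (SE 0.31, adjusted p = 0.69, edgeR).

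The oxidases of epithelia and their helpers had few counts in most libraries, with Aqp5-/- replicate 3 as the exception. Nox1 had 1, 6 and 5 counts in Aqp5-/- libraries, against 5, 4 and 1 in Aqp5+/+ libraries, and its organizer Noxo1 had 2, 11 and 47, against 10, 16 and 8. Its activator Noxa1 had 10, 1 and 59 counts in Aqp5-/- libraries, against 0, 4 and 0 in Aqp5+/+ libraries. Duox2, a dual oxidase that releases H2O2, had 0, 12 and 212 counts in Aqp5-/- libraries, against 0, 1 and 5 in Aqp5+/+ libraries. Its maturation factor Duoxa2 had 3, 0 and 62 counts in Aqp5-/- libraries, against 1, 0 and 0 in Aqp5+/+ libraries. For Noxo1, Noxa1, Duox2 and Duoxa2 the highest count was thus in Aqp5-/- replicate 3, the library with the most bile duct marker RNA. Its cholangiocyte markers summed to 437 CPM, against 73.3 and 95.4 CPM in the other Aqp5-/- libraries and 123, 108 and 213 CPM in Aqp5+/+ libraries. The part of these cells in the counts was not tested. Duoxa1 had 0 counts in every library.

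**Figure D3:**
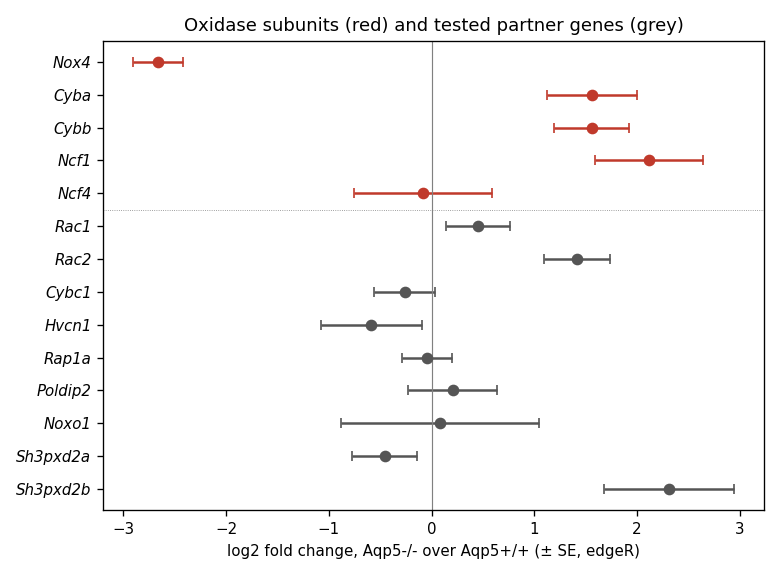
Log2 fold changes (Aqp5-/- over Aqp5+/+) with standard errors from edgeR, for the 5 oxidase genes in red above the dotted line and 9 of the 10 tested partner genes in grey below it. Nox4 lies furthest left at -2.66, and Hvcn1 (-0.59) and Sh3pxd2a (-0.46) also lie to the left of 0 by more than their standard errors. Sh3pxd2b (2.31), Ncf1 (2.12), Cyba and Cybb (1.56 each), Rac2 (1.42) and Rac1 (0.45) lie to the right of 0 by more than theirs.

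Phagocytes other than those resident before PHx can enter a regenerating liver, so the subunits were set beside cell type markers, and in bulk RNA fewer cells of a type and less RNA per cell cannot be told apart. Of 20 macrophage markers in the table, 19 were tested and 19 had a positive log2 fold change (51.0% of all tested genes had), with a median of 1.10. By edgeR 0 of these were called, 13 had an unadjusted p under 0.05 (8.78% of all tested genes had), and DESeq2 called 6 (1.95% of all genes) and limma 0. The summed level was 1435, 1095 and 2059 CPM in Aqp5-/- libraries, against 869, 610 and 583 CPM in Aqp5+/+ libraries, without overlap. No marker of the list was at 0 in all libraries, and Csf1r, the receptor of the macrophage growth factor, had only 8, 9 and 16 counts in Aqp5-/- libraries, against 8, 0 and 2 in Aqp5+/+ libraries.

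Of the 3 most abundant macrophage markers edgeR called 0 and DESeq2 called Marco. Marco, a scavenger receptor, was at 186, 125 and 511 CPM in Aqp5-/- livers, against 119, 34.1 and 39.4 CPM in Aqp5+/+ livers (log2 fold change 2.09, adjusted p = 0.40, edgeR). Cd5l, a secreted protein of Kupffer cells, was at 323, 207 and 328 CPM in Aqp5-/- livers, against 181, 89.2 and 131 CPM in Aqp5+/+ livers (log2 fold change 1.10, adjusted p = 0.37, edgeR). Clec4f, a lectin of Kupffer cells, had a log2 fold change of 0.52 (adjusted p = 0.67, edgeR).

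Set against the summed macrophage markers, the phagocyte subunits overlapped between the genotypes. Cybb was at 69.4, 49.2 and 71.6 CPM per 1000 CPM of macrophage markers in Aqp5-/- libraries, against 42.9, 42.6 and 66.4 in Aqp5+/+ libraries. The ratio of the means was 1.25 on this scale, where it was 2.95 in CPM. Cyba was at 6.56, 5.88 and 8.36 per 1000 CPM in Aqp5-/- libraries, against 5.11, 4.68 and 6.57 in Aqp5+/+ libraries. Ncf1 was at 6.67, 5.00 and 8.33 in Aqp5-/- libraries, against 2.22, 2.71 and 6.43 in Aqp5+/+ libraries, with a ratio of means of 1.76 on this scale. Ncf4 was at 4.01, 4.21 and 4.71 in Aqp5-/- libraries, against 3.95, 25.6 and 4.61 in Aqp5+/+ libraries, so that apart from Aqp5+/+ replicate 2 it stayed within a narrow range. The part of macrophage RNA in the differences was not tested beyond these ratios.

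Neutrophil markers, 16 in the table with 9 tested, were at low levels and had a median log2 fold change of 2.50. Their summed level was 37.0, 42.9 and 144 CPM in Aqp5-/- libraries, against 11.3, 5.41 and 27.9 CPM in Aqp5+/+ libraries. By edgeR 1 of the 9 was called (0.332% of all tested genes were), and 6 were higher at an unadjusted p under 0.05 (8.78% of all tested genes had such a p). The called gene was Ngp, a protein of neutrophil granules. It had 39, 26 and 50 counts in Aqp5-/- libraries, against 0, 0 and 1 in Aqp5+/+ libraries (adjusted p = 0.048, edgeR). DESeq2 called 2 higher (1.95% of all genes) and limma 0 (0.364% of all genes). Not every marker was clearly higher. Csf3r had a log2 fold change of 0.14 (SE 1.13). Elane, which was not tested, averaged 0.163 CPM in Aqp5-/- livers and 0.356 CPM in Aqp5+/+ livers. S100a9, a calcium-binding protein abundant in neutrophils, was at 12.4, 16.2 and 43.7 CPM in Aqp5-/- livers, against 4.53, 2.55 and 11.7 CPM in Aqp5+/+ livers. The order of the Aqp5+/+ libraries for S100a9, replicate 3 highest and replicate 2 lowest, was also that of Ncf1 and of Cybb. In Aqp5-/- libraries the orders differed, with replicate 1 lowest for S100a9 and replicate 2 lowest for Ncf1 and Cybb. The part of neutrophil RNA in the Ncf1 values was not tested.

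**Figure D4:**
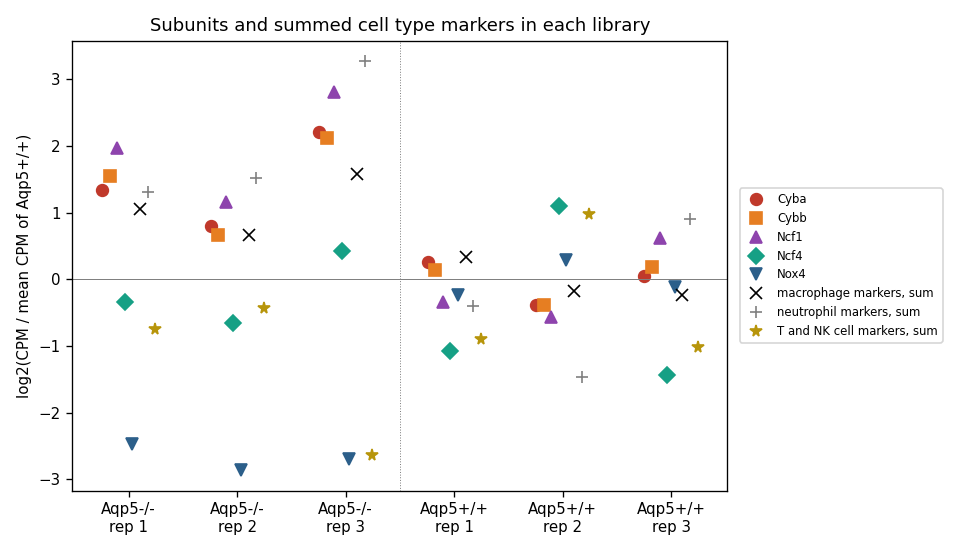
Log2 ratio of each library's CPM to the mean of Aqp5+/+ for the 5 oxidase genes and for summed macrophage, neutrophil and T and NK cell markers, with Aqp5-/- replicates 1 to 3 left of the dotted line and Aqp5+/+ replicates 1 to 3 right of it; points are offset sideways for legibility. Cyba, Cybb, Ncf1 and the macrophage and neutrophil sums lie above 0 in all 3 Aqp5-/- libraries and are highest in replicate 3, Nox4 lies far below 0 in all 3, and Ncf4 peaks in Aqp5+/+ replicate 2 together with the T and NK cell sum.

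Markers of the cells known to express Nox4 were set beside it in the same way. Stellate cell markers had a median log2 fold change of 0.31 over 14 genes with 0 called by edgeR, DESeq2 or limma. At an unadjusted p under 0.05, 2 were higher and 2 lower (8.78% of all tested genes had such a p). Dcn, decorin of stellate cells and fibroblasts, had a log2 fold change of 0.21, Col3a1, a fibrillar collagen, one of 2.12 and Reln, the reelin of resting stellate cells, one of -0.66, with adjusted p of 0.81, 0.56 and 0.43 (edgeR). Of 12 sinusoidal endothelial markers 10 had a negative log2 fold change and 2 a positive one. Their summed level was 293, 389 and 431 CPM in Aqp5-/- libraries, against 570, 532 and 316 CPM in Aqp5+/+ libraries, and the groups overlapped. These markers had a median of -0.54 and hepatocyte markers one of -0.09 over 13 genes, with 0 called in either by edgeR, DESeq2 or limma (3 lower and 0 at an unadjusted p under 0.05). Nox4 was low in all 3 Aqp5-/- libraries. The stellate cell sum was highest in Aqp5-/- replicate 3, where the collagen Col3a1 alone had 1407 CPM of it, and was close to Aqp5+/+ livers in Aqp5-/- replicates 1 and 2. The part of these cells in the Nox4 values was not tested.

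TGF-beta, the cytokine best known to induce Nox4, was followed through 14 genes of its axis, and 0 were called by edgeR, DESeq2 or limma. At an unadjusted p under 0.05, 3 were higher and 0 lower (8.78% of all tested genes had such a p). The median of these 14 genes was a log2 fold change of 0.50. The receptors Tgfbr1 and Tgfbr2 had log2 fold changes of 0.38 and 0.54 and Skil, a repressor induced by the pathway, one of 0.79, with adjusted p of 0.62, 0.71 and 0.58 (edgeR). The summed level of the axis was 281, 287 and 555 CPM in Aqp5-/- libraries, against 267, 273 and 248 CPM in Aqp5+/+ libraries, so that the difference was large in Aqp5-/- replicate 3 only.

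Signals that activate the phagocyte oxidase were mostly higher without passing the test. Of 21 receptors, kinases and exchange factors, 20 had a positive log2 fold change (51.0% of all tested genes had), and the median was 0.61. Called were 0 by edgeR and limma, with 7 higher at an unadjusted p under 0.05 (8.78% of all tested genes had such a p). DESeq2 called 2 higher (1.95% of all genes). All 19 tested macrophage markers had a positive log2 fold change as well. The part of phagocyte RNA in the values of these signals was not tested. Itgb2, the beta chain of the phagocyte integrins, was at 40.8, 29.9 and 76.7 CPM in Aqp5-/- livers, against 22.7, 24.2 and 21.1 CPM in Aqp5+/+ livers (log2 fold change 1.12, adjusted p = 0.40, edgeR). The kinases Syk and Prkcd, which act downstream of such receptors and phosphorylate p47phox in the case of Prkcd, had log2 fold changes of 0.24 and 0.23. The genes that DESeq2 called, named after their values were seen, were Fcer1g, the signalling chain of Fc receptors, and Fpr1, the receptor of formylated peptides, with log2 fold changes of 1.67 and 1.26.

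Of 11 myeloid transcription factors 0 were called by edgeR and limma, and the median log2 fold change was 0.25. At an unadjusted p under 0.05, 2 were higher and 1 lower (8.78% of all tested genes had such a p). DESeq2 called 1 lower (1.95% of all genes). The factor that DESeq2 called, named after its values were seen, was Cebpe, which drives late granulocyte maturation. It was at 3.89, 3.04 and 2.68 CPM in Aqp5-/- livers, against 9.14, 9.61 and 6.59 CPM in Aqp5+/+ livers, without overlap (log2 fold change -1.39, adjusted p = 0.29 from edgeR and 0.036 from DESeq2). Spi1, which encodes PU.1 and was picked here because of the motif in the Cybb promoter, was not called by any of the tools and was at 12.5, 11.5 and 14.1 CPM in Aqp5-/- livers, against 6.45, 7.36 and 4.15 CPM in Aqp5+/+ livers (log2 fold change 1.09, adjusted p = 0.36, edgeR). The groups did not overlap. Irf1 and Elf1, factors also known to act on the CYBB promoter in human cells, had log2 fold changes of -0.12 and 0.06, and Cebpa, abundant in hepatocytes, one of -0.54.

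Other enzymes that make H2O2 had a summed level of 9688, 11335 and 5433 CPM in Aqp5-/- libraries, against 15076, 15455 and 16271 CPM in Aqp5+/+ libraries. By edgeR and limma 0 of 20 tested genes were called, and the median log2 fold change was 0.11. At an unadjusted p under 0.05, 1 was higher and 3 lower (8.78% of all tested genes had such a p). DESeq2 called 2 lower (1.95% of all genes). The sum was carried by a few hepatocyte enzymes. Cyp2e1, an ethanol-inducible P450 that leaks electrons to oxygen, was at 3248, 5286 and 1233 CPM in Aqp5-/- livers, against 6845, 7275 and 6598 CPM in Aqp5+/+ livers (log2 fold change -1.08, adjusted p = 0.58, edgeR). Uox, urate oxidase, had a log2 fold change of -0.17. The genes that DESeq2 called lower were Aox1 and Aox3, aldehyde oxidases, named after their values were seen.

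The genes whose log2 CPM followed that of Nox4 most closely over the 6 libraries, among 12133 genes with a mean of at least 1 CPM, were Uty (r = 0.996), Ddx3y (0.993), Cyp2c67 (0.993), Eif2s3y (0.991) and Cyp4v3 (0.990). Of these, Uty, Ddx3y and Eif2s3y are on the Y chromosome and are among the 22 genes called lower. Cyp2c67, a cytochrome P450 of a family with near-identical copies, was at 119, 85.8 and 86.2 CPM in Aqp5-/- livers, against 316, 358 and 322 CPM in Aqp5+/+ livers. Like Nox4, the Y-linked Uty was highest in Aqp5+/+ replicate 2, at 182 CPM, against 108 and 92.9 CPM in the other Aqp5+/+ libraries. The genes closest to the mean of Cyba, Cybb, Ncf1 and Ncf4 were Csf2rb (r = 0.997), Naif1 (0.995), Emd (0.992), Itgb2 (0.986) and Usp25 (0.985). Csf2rb, a shared receptor chain for cytokines of myeloid cells, was at 25.9, 19.2 and 37.1 CPM in Aqp5-/- livers, against 12.5, 15.2 and 13.8 CPM in Aqp5+/+ livers. These correlations rest on 6 points that share the genotype difference and were picked as the highest of all, and they carry no test.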

How the data were processed

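Liver RNA of 3 Aqp5-/- and 3 Aqp5+/+ libraries was compared. The deposited values are raw counts per gene that the authors made with HTSeq, and the submitters' processing notes name the trimmer cutadapt 1.9.3, the aligner HISAT2 2.0.4 and the mm10 build. The kits named in the methods and the labels differ, and the strand setting of the counting is not given in the sources used here. A further 6 columns of per-sample values, the authors' normalized values, were not used. Library totals were 7130831 to 15550006 counts, with a common biological coefficient of variation of 0.371.

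Genes were filtered with filterByExpr (minimum count 10, minimum total 15), scaled by TMM and tested in R 4.3.3 with the robust quasi-likelihood fit of edgeR 4.0.16, 2-sided, with Benjamini-Hochberg adjustment over 12353 genes. CPM values for correlations were on the log2 scale with a prior count of 2. The comparison was tested on simulated data. Alternatives were RLE factors, library totals alone, no filter, a mean of at least 1 CPM, DESeq2 1.42.0, limma 3.58.1 with a trend, a block for the replicate number, and omitting each library in turn.

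The oxidase genes, the gene lists and the tests were chosen with earlier results of these data known. The rule for named genes took all 5 oxidase genes, all partner genes, of each other list the called genes and the 3 with the highest mean CPM, and the 5 genes most correlated with Nox4 and with the mean of the phagocyte genes. Not every gene it names was used, and values of some list genes are not reported here. Positions are from GENCODE vM21 on GRCm38, which held 16666 of 16858 identifiers.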

Additional observations from a re-analysis of the deposited data

How the results depend on the processing

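The directions of Nox4, Cyba, Cybb and Ncf1 were the same under all 13 alternatives. With 1 library left out at a time the log2 fold change ranged from -2.78 to -2.50 for Nox4, from 1.08 to 1.83 for Cyba, from 1.17 to 1.85 for Cybb, from 1.60 to 2.57 for Ncf1 and from -0.49 to 1.13 for Ncf4, the last without Aqp5+/+ replicate 2. The number of oxidase genes called ranged from 0 to 1 and that of partner genes was 0 throughout. Over all genes the number called ranged from 4, without Aqp5-/- replicate 2 or Aqp5+/+ replicate 1, to 45 without Aqp5-/- replicate 3. DESeq2 called 240 genes where edgeR called 41, 3 of the oxidase genes where edgeR called 1, and 2 partner genes where edgeR called 0. Over the other 7 settings the log2 fold change ranged from -2.67 to -2.50 for Nox4, from 1.43 to 1.73 for Cyba, from 1.46 to 1.73 for Cybb and from 2.00 to 2.30 for Ncf1. That of Ncf4, not called in any, ranged from -0.11 to 0.31. Scaling by library totals alone moved the median log2 fold change of all genes to 0.17 and that of Nox4 to -2.50. With the replicate number as a block 39 genes were called, and the log2 fold changes were -2.65 for Nox4 and 0.31 for Ncf4. Deviations from the group means had correlations of -0.06, 0.23 and 0.15 between libraries of the same number. Aqp5-/- replicates 2 and 3 correlated best with the Aqp5+/+ library of their own number, and replicate 1 did not. With 3 libraries per genotype these correlations cannot decide whether libraries of the same number share more than the number. The cause of the changes between settings was not tested. Depth limits Ncf1 and Cyba, which had 11 and 19 counts in Aqp5+/+ replicate 2.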
